A study of Mus musculus with 7 samples.

Results

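The 10 genes described here encode the enzymes that hydroxylate proline and lysine in collagen chains and the chaperone that receives the folded molecule. They were taken by name: the prolyl 4-hydroxylase alpha subunits P4ha1, P4ha2 and P4ha3, the prolyl 3-hydroxylases P3h1, P3h2 and P3h3, the lysyl hydroxylases Plod1, Plod2 and Plod3, and Serpinh1, which encodes Hsp47. All 10 were found among the 49671 genes of the deposited count table, and all 10 passed the filter on low counts that left 17144 genes for testing. The RNA came from crushed whole femurs of mice whose genotype is labelled wild type. Of the 7 libraries, 4 were from mice with a traumatic brain injury (TBI), produced by controlled cortical impact (a mechanical blow to the brain surface), and these femurs were taken 3 days after it. The other 3 were from uninjured controls, and the sources used here do not give their surgery, if any, or the strain and age of either group. The comparison addresses the effect of brain injury on gene expression in a remote bone.

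Collagen chains are modified inside the endoplasmic reticulum (ER) before they fold. Prolyl 4-hydroxylase, a tetramer of alpha subunits and the disulfide isomerase P4hb, makes the hydroxyproline that keeps the triple helix stable at body temperature. Prolyl 3-hydroxylases change only a few prolines, and P3h1 does so in a complex with Crtap and the cyclophilin Ppib whose loss causes brittle bones in people. Lysyl hydroxylases prepare lysines for sugar attachment and for the crosslinks that give bone its strength, and Hsp47 then binds the folded procollagen until it leaves the ER. All of these hydroxylases use iron, 2-oxoglutarate and vitamin C.

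Total counts were 15461528 to 21783534 per library, and the members had from 107 (P4ha3) to 8911 (Serpinh1) counts in a library. Values are given as CPM, counts scaled to a common depth with TMM-adjusted library sizes, and a log2 fold change below 0 means a lower level after TBI. All 8 osteoblast, 5 osteocyte and 8 chondrocyte markers checked against the tissue label had counts in every library, as did all 10 skeletal muscle markers. The summed muscle markers ran from 17166 to 59649 CPM in controls and from 20761 to 110722 CPM after TBI, with the highest levels in TBI 3 (88519) and TBI 4 (110722). Nothing in the labels says that the numbered replicates are separate animals, so the p-values reflect only the spread between these libraries, which may be technical.

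Collagen-modifying mRNAs were mostly lower in the femurs of injured mice, but no single member passed the threshold in the main test. The estimate was below 0 for 9 of the 10 members, against 45.6% of all genes tested, and the exception was Plod3. The members' median log2 fold change was −0.40 (quartiles −0.58 and −0.25), against 0.03 over all genes tested (quartiles −0.15 and 0.21). In edgeR's quasi-likelihood test, 0 of the 10 had an adjusted p under 0.05, as did 0% of all genes. At an unadjusted p under 0.05, 7 members were lower in edgeR, against 4.97% of all genes: P4ha1, P4ha2, P4ha3, P3h1, P3h3, Plod2 and Serpinh1. Without control 2 this count was 2. Control 2 had the fewest total counts (15461528) and was the highest control for every member except Plod1 and Plod2. DESeq2 called 1 member, P4ha3 (0.736% of all genes with an adjusted p), and limma-voom called 0 members with or without sample quality weights, as it did for 0% of all genes. For P4ha3, P3h1, P3h3 and Serpinh1, every TBI library lay below every control in scaled CPM, a pattern seen for 5.38% of all genes. The other 6 members overlapped between the groups.

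Markers of the cells that make collagen differed in the same direction. The summed CPM of the osteoblast markers, which is mostly Col1a1, was 8727 to 15172 in controls and 5986 to 8062 after TBI. The chondrocyte markers, whose sum is mostly Col2a1, came to 2987 to 3700 CPM in controls and 1834 to 2317 after TBI. Those of tendon and fibroblasts summed to 1424 to 1883 and 911 to 1231 CPM. These 3 sums of scaled CPM did not overlap between the groups, and their part in the members' values was not tested. As an unscaled share of counts the osteoblast sum did overlap, at 0.861% in control 3 and 0.87% in TBI 1. Of single markers, every TBI library was below every control for 6 of 8 osteoblast and 6 of 8 chondrocyte genes. The same held for 5 of 6 tendon and fibroblast genes, against 5.38% of all genes. In a whole bone, fewer cells of a type and less RNA per cell cannot be told apart. Erythroid markers also did not overlap, with sums of 44365 to 50961 CPM in controls and 22913 to 32183 CPM after TBI, and their part was not tested. Sums of osteocyte (114 to 191 CPM in controls, 63.7 to 164 after TBI) and neutrophil markers (2532 to 4166 and 1805 to 10748) overlapped between the groups. The osteocyte sum is mostly Dmp1. All 5 osteocyte markers had estimates below 0, with a median log2 fold change of −0.85. For 2 of the 5, Phex and Mepe, every TBI library was below every control, against 5.38% of all genes. All 7 neutrophil markers had estimates above 0, with a median of 1.04. Without TBI 3 and TBI 4, the libraries richest in muscle markers, the members' median was −0.43, and with the muscle marker mean as a covariate it was −0.40. Single members moved in both directions with the covariate, Plod2 from −0.65 to −0.45 and P4ha2 from −0.39 to −0.54.

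**Figure D1:**
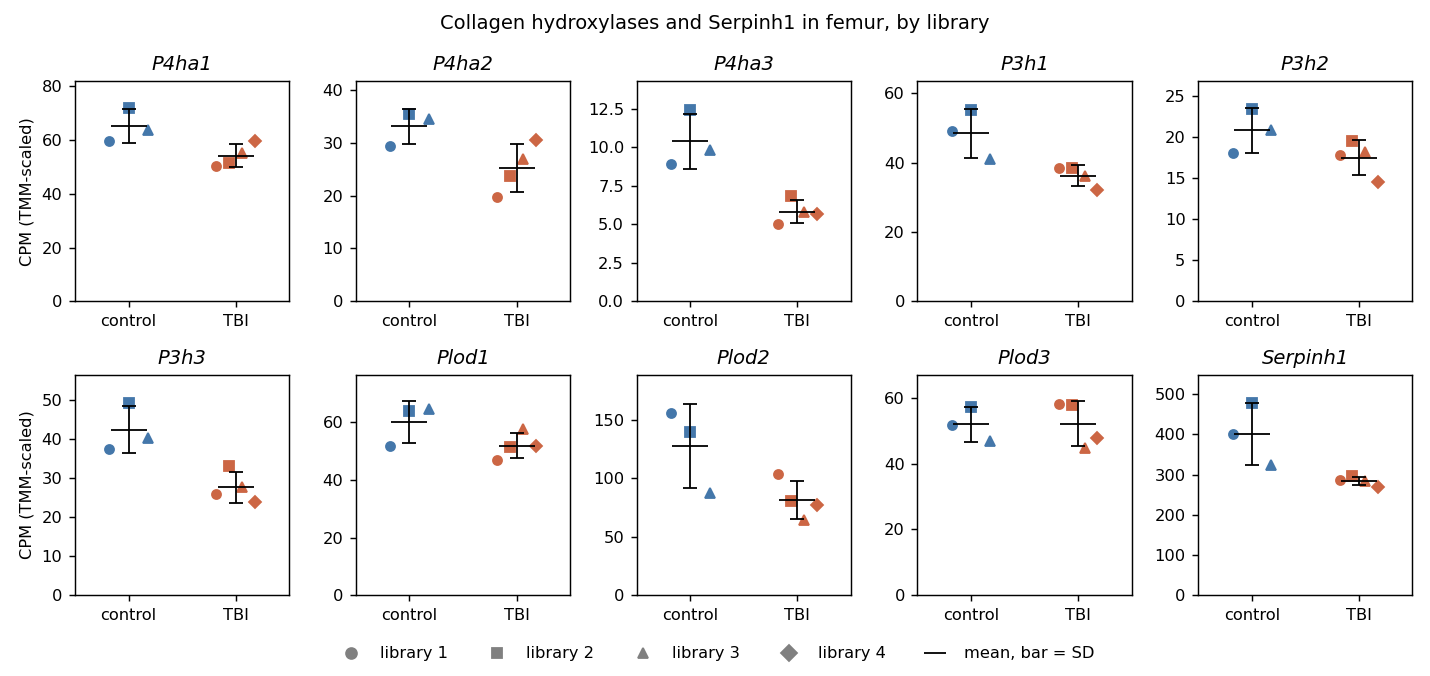
CPM of the 10 genes in each library, with control libraries in blue and TBI libraries in orange; marker shapes give the library number, and bars are the mean and SD. P4ha3, P3h1, P3h3 and Serpinh1 show every TBI library below every control, while the Plod3 groups overlap, at 46.8 to 57.2 CPM in controls and 44.8 to 58.3 CPM after TBI.

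Serpinh1 was by far the most abundant member per length of mRNA. Its level in controls was 164 ± 31.6 RPKM (CPM per kilobase of exon; SD, n = 3), above Plod2 at 23.7 ± 6.65, P4ha1 at 15.8 ± 1.55 and P3h1 at 12.6 ± 1.84. Plod3 (11.5 ± 1.15 RPKM), P3h3 (10.8 ± 1.53) and Plod1 (8.88 ± 1.07) followed. The lowest levels in controls were those of P3h2 (5.59 ± 0.72 RPKM), P4ha2 (5.30 ± 0.523) and P4ha3 (3.31 ± 0.582). Neighbours in this order overlapped among the control libraries for Plod2 and P4ha1, P3h1 and Plod3, Plod3 and P3h3, and P3h2 and P4ha2. Serpinh1 exceeded Plod2, and P4ha2 exceeded P4ha3, in 7 of 7 libraries.

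The 250 bases before the start site are shown for P4ha3, P3h1 and Serpinh1, 3 of the 4 genes whose groups did not overlap. The fourth, P3h3, is not shown because its GENCODE gene model begins inside the window, and its window holds none of the motifs searched. The sequences are from RefSeq on GRCm38.p6, each 5′ to 3′ on the gene's own strand. P4ha3 lies at chr7:100285270-100285519 (plus strand), P3h1 at chr4:119232665-119232914 (plus strand, the first of its 2 entries) and Serpinh1 at chr7:99353240-99353489 (minus strand). Capitals mark GGGCGG, the GC box, and ACGTG or GCGTG, the core of the hypoxia response element, on either strand.
P4ha3: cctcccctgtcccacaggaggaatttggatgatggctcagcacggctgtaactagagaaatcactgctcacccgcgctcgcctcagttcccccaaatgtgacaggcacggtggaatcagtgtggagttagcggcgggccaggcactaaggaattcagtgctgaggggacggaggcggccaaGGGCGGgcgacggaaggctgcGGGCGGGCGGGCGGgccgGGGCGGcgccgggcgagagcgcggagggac
P3h1: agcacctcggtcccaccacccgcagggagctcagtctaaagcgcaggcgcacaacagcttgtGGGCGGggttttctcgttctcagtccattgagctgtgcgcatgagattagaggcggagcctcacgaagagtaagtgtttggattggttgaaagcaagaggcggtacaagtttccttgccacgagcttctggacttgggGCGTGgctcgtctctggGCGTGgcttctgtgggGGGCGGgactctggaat
Serpinh1: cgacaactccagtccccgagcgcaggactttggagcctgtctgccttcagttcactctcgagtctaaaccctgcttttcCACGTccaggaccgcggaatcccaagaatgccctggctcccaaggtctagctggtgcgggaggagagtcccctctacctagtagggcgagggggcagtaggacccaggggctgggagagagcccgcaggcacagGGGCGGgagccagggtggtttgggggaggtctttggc

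The P4ha3 window holds 5 GC boxes, 3 of which overlap one another, and no match to either hypoxia core. The P3h1 window holds 2 GC boxes and 2 copies of GCGTG, and the Serpinh1 window holds 1 GC box and 1 ACGTG on the opposite strand. The P3h3 window holds 0 matches to each of these motifs, so no motif searched was shared by the 4 genes. Entries existed for 8 of the 10 members (9 windows). A GC box was found in 6 of the 9 windows, against 32.7% of all 32851 windows of this length, and ACGTG or GCGTG in 7 of the 9, against 38.6%. The CCAAT box, also searched on either strand, was found in 3 of the 9, against 33.8%. The P3h1 window shown holds 1 CCAAT box, left in lower case. These matches are a description of the letters and not of bound sites.

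P4ha1, the most abundant prolyl 4-hydroxylase alpha subunit here (ENSMUSG00000019916, protein coding, GRCm38 chromosome 10, 59323296 to 59373304, plus strand), measured 59.5, 72.0 and 63.7 CPM in controls 1 to 3 and 50.3, 51.4, 55.3 and 59.7 CPM in TBI 1 to 4. TBI 4 reached the level of control 1, and the other 3 TBI libraries were below all controls. The log2 fold change was −0.26 ± 0.11 (SE; edgeR adjusted p = 0.678). P4ha2, which encodes the alpha subunit of the second tetramer type (ENSMUSG00000018906, chromosome 11, 54100095 to 54131665, plus strand), measured 29.3, 35.4 and 34.5 CPM in controls and 19.8, 23.7, 27.0 and 30.5 CPM after TBI. Again only TBI 4 lay within the control range. Its log2 fold change was −0.39 ± 0.16 (edgeR adjusted p = 0.664), and −0.63 without TBI 3 and TBI 4.

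P4ha3, the least abundant alpha subunit (ENSMUSG00000051048, chromosome 7, 100285520 to 100319699, plus strand), measured 8.89, 12.4 and 9.85 CPM in controls and 5.0, 6.81, 5.80 and 5.69 CPM after TBI. The highest TBI library was below the lowest control. The log2 fold change of −0.83 ± 0.18 (SE) was the lowest of the 10 members, and 1.44% of all genes tested had a lower one. Means were 10.4 ± 1.82 CPM in controls (SD, n = 3) and 5.83 ± 0.748 CPM in the injured group (SD, n = 4), and the fitted fold was 1.78. The adjusted p was 0.423 in edgeR and 0.0255 in DESeq2, which was the lowest over the alternatives run (the highest was 0.987).

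P3h1, the prolyl 3-hydroxylase of the Crtap complex (ENSMUSG00000028641, chromosome 4, 119232915 to 119248975, plus strand), measured 49.0, 55.2 and 41.1 CPM in controls and 38.3, 38.3, 36.1 and 32.0 CPM after TBI. Controls and TBI libraries did not overlap in scaled CPM, although control 3 and the nearest TBI libraries were close. This separation depended on the scaling. Control 3 had 788 P3h1 counts of 19442998, a smaller share than the 882 of 21339407 in TBI 1. The log2 fold change was −0.42 ± 0.13 (SE; edgeR adjusted p = 0.549). P3h3, which acts with P3h4 in a complex that also bears on lysine hydroxylation (ENSMUSG00000023191, chromosome 6, 124841089 to 124857752, minus strand), measured 37.6, 49.2 and 40.4 CPM in controls and 25.9, 33.1, 27.7 and 24.0 CPM after TBI. Every TBI library was again below every control, at a log2 fold change of −0.61 ± 0.15 (edgeR adjusted p = 0.423). P3h2, a prolyl 3-hydroxylase known to act on collagen IV of basement membranes (ENSMUSG00000038168, chromosome 16, 25959288 to 26105784, minus strand), measured 18.1, 23.5 and 20.9 CPM in controls and 17.9, 19.5, 18.2 and 14.5 CPM after TBI. These groups overlapped, and the log2 fold change was −0.25 ± 0.15 (edgeR adjusted p = 0.755), or −0.15 without control 2.

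Plod2, the lysyl hydroxylase of the collagen ends, where bone crosslinks form (ENSMUSG00000032374, chromosome 9, 92542223 to 92608428, plus strand), had the largest control SD relative to its mean of the 10 members. It measured 156, 140 and 87.5 CPM in controls 1 to 3 and 104, 81.0, 64.0 and 77.3 CPM in TBI 1 to 4. TBI 1 lay above control 3, and the other 3 TBI libraries were below all controls. The log2 fold change was −0.65 ± 0.22 (SE; edgeR adjusted p = 0.604), and it ran from −0.86 without control 3 to −0.48 without control 1. With the muscle marker mean as a covariate it was −0.45. Plod1, which hydroxylates lysines of the triple helix (ENSMUSG00000019055, chromosome 4, 147909753 to 147936767, minus strand), measured 51.7, 63.9 and 64.5 CPM in controls and 46.8, 51.4, 57.7 and 51.7 CPM after TBI. Its groups overlapped at control 1, and the log2 fold change was −0.21 ± 0.12 (edgeR adjusted p = 0.75).

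Plod3, which also adds glucose to hydroxylysine that already carries galactose (ENSMUSG00000004846, chromosome 5, 136987019 to 136996648, plus strand), had nearly equal means in the groups. It measured 51.9, 57.2 and 46.8 CPM in controls and 58.3, 58.0, 44.8 and 47.8 CPM after TBI, so TBI 1 and TBI 2 were above all controls and TBI 3 was below them. The log2 fold change was 0.01 ± 0.14 (SE; edgeR adjusted p = 0.992), and its sign turned under upper quartile scaling (−0.03) and when control 3, TBI 1 or TBI 2 was left out. The exons of Plod3 share 529 bases with the oppositely oriented gene Znhit1, which had 399 to 702 counts per library and a log2 fold change of 0.22 ± 0.13 (edgeR adjusted p = 0.744). The sources used here do not give the use of strand in the counting, so reads of Plod3 and Znhit1 may not have been kept apart. The exons of P3h2 overlap the antisense RNA Gm4524 (0 to 3 counts per library) and those of Plod2 the unclassified transcript Gm38391 (7 to 21 counts), both on the opposite strand.

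Serpinh1, which encodes Hsp47 (ENSMUSG00000070436, chromosome 7, 99345376 to 99353239, minus strand), measured 402, 479 and 324 CPM in controls and 286, 296, 285 and 270 CPM after TBI. The 4 TBI libraries were close to one another and all below the controls, which were far more spread. Means were 402 ± 77.3 CPM (SD, 3 controls) and 284 ± 10.6 CPM (SD, 4 TBI libraries). Its log2 fold change was −0.50 ± 0.15 (SE; edgeR adjusted p = 0.544), and it stayed between −0.63 and −0.35 with any 1 library left out.

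**Figure D2:**
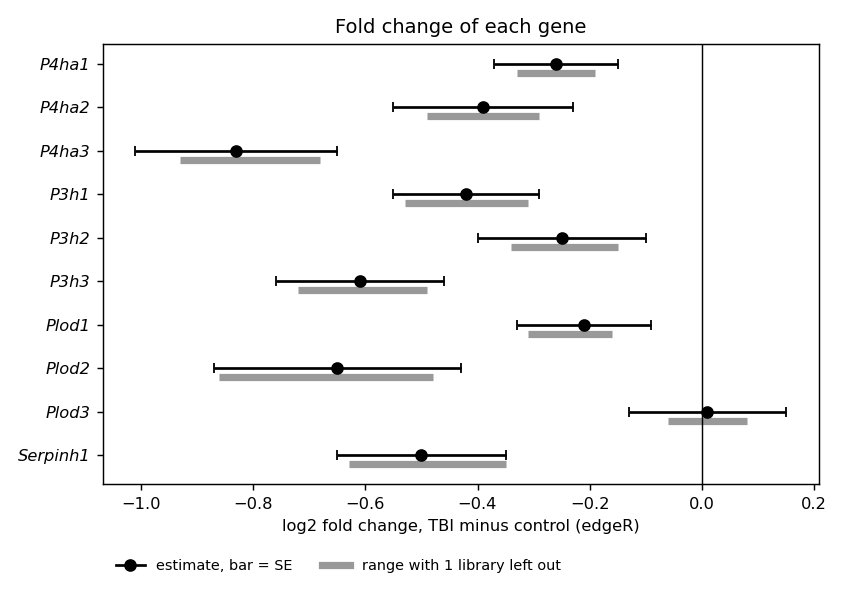
Log2 fold change of each gene in edgeR, with bars for the SE (3 control and 4 TBI libraries) and grey bars for the range of estimates when 1 library was left out. All genes except Plod3 stay below 0 throughout, and P4ha3 lies lowest at −0.83.

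Within the prolyl 4-hydroxylase family P4ha1 made up a larger share after TBI. As a share of the 3 alpha subunits, with counts divided by exon length, P4ha1 made up 65.7%, 64.5% and 64.1% in controls and 72.0%, 67.6%, 68.5% and 68.4% after TBI. All 4 TBI libraries were above the controls, and the means differed by 4.36 percentage points (64.8% ± 0.852 and 69.1% ± 1.92, SD). The two-sided exact permutation p was 0.0571, the smallest that 3 against 4 libraries allow, and 0.243 after adjustment over the 17 ratios and shares tested. P4ha3 made up 13.5% ± 0.955 of the controls' total and 9.79% ± 1.38 of the TBI libraries' (SD, n = 3 and 4), and P4ha2 21.7% ± 1.04 and 21.1% ± 1.90. The P4ha3 share was 12.9% to 14.6% in controls and 8.56% to 11.8% after TBI, without overlap, and was not tested.

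For the lysyl hydroxylases, Plod2 made up 60.2%, 54.0% and 44.9% of the family in controls and 49.3%, 42.4%, 39.2% and 44.0% after TBI. TBI 1 lay within the control range and the other 3 below it. The mean difference was −9.32 percentage points (exact permutation p = 0.114, adjusted p = 0.278), and −5.73 without control 1. Plod3 made up 26.3% ± 2.39 of this family in controls and 33.6% ± 1.75 after TBI (SD, n = 3 and 4). Its share did not overlap between the groups, at 23.9% to 28.7% in controls and 32.5% to 36.2% after TBI. The share of P3h1 among the prolyl 3-hydroxylases was 43.4% ± 3.34 in controls and 44.6% ± 1.91 after TBI, with overlapping groups (exact permutation p = 0.629, adjusted p = 0.729). That difference turned from 1.11 to −0.515 percentage points without control 3. The P3h2 share was 17.9% to 21.1% in controls and 21.3% to 22.9% after TBI, without overlap. The P3h3 share was 37.2% ± 1.77 and 33.2% ± 1.98 (SD), with overlapping groups. Shares of Plod3, P3h2 and P3h3 were not tested.

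**Figure D3:**
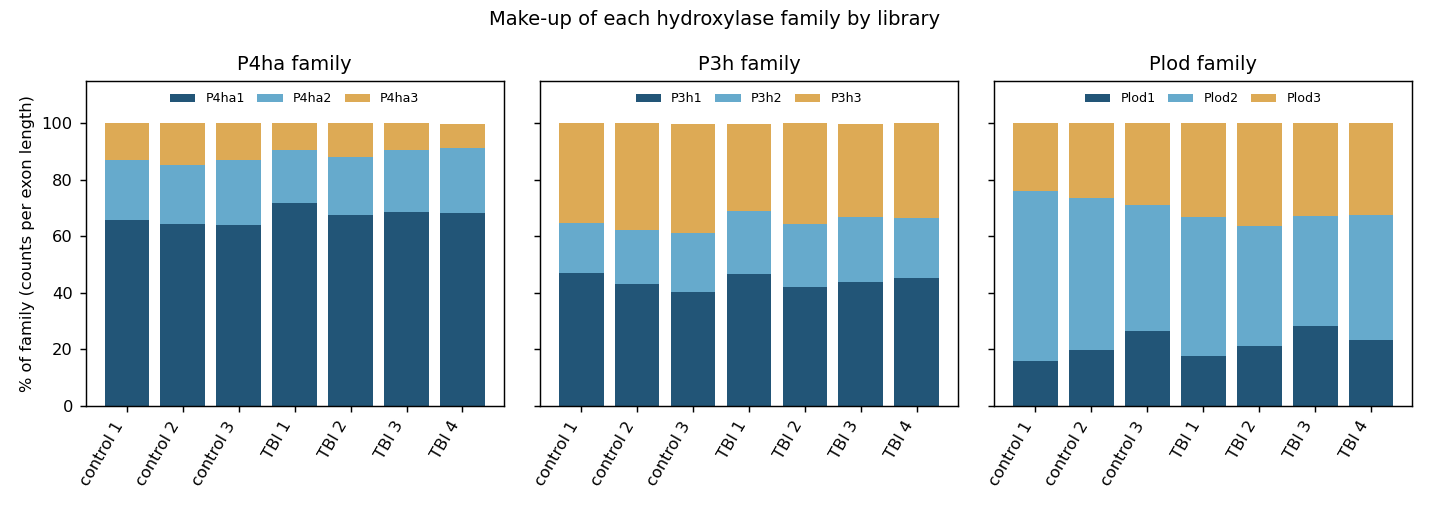
Stacked shares of each family's 3 genes in every library, from counts divided by exon length, in percent. P4ha1 takes 64.1% to 65.7% of its family in controls and 67.6% to 72.0% after TBI, and the Plod2 band is narrowest in TBI 3 at 39.2%.

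The collagen I chains were lower by more than most of their modifying enzymes, so several enzymes had more counts per collagen I count after TBI. The summed share of Col1a1 and Col1a2 in all counts was 2.29%, 2.66% and 1.46% among controls, and 1.47%, 1.38%, 1.16% and 0.855% in the TBI libraries. The 2 chains had log2 fold changes of −0.72 ± 0.28 and −0.79 ± 0.27 (SE; edgeR adjusted p = 0.648 and 0.604). Per collagen I count of the same library, a measure that does not depend on scaling between libraries, the log2 ratio of Plod3 was −8.69, −8.82 and −8.30 in controls and −7.87, −7.78, −8.16 and −7.68 after TBI. Every TBI library was above every control, by 0.73 on the log2 scale in the mean (1.66-fold; exact permutation p = 0.0571, adjusted p = 0.243).

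P3h1 per collagen I count also did not overlap, at −8.77, −8.88 and −8.49 in controls and −8.48, −8.38, −8.47 and −8.26 after TBI on the log2 scale. The mean difference was 0.32 (exact permutation p = 0.0571, adjusted p = 0.243), with control 3 and the lowest TBI library nearly equal. Serpinh1 stood at −5.73, −5.76 and −5.51 in controls and −5.57, −5.43, −5.50 and −5.18 after TBI. Its difference of 0.25 left TBI 1 within the control range (exact permutation p = 0.114, adjusted p = 0.278). Means were also higher after TBI for Plod1 (0.52, and 0.80 without control 3 or 0.33 without TBI 3 and TBI 4), P3h2 (0.48), P4ha1 (0.47, and 0.31 without TBI 4 or 0.26 without TBI 3 and TBI 4) and P4ha2 (0.33), with overlapping groups. The P4ha2 ratio rested on single libraries, at 0.58 without control 3, 0.20 without control 1 or control 2 and 0.13 without TBI 4, and it was 0.01 without TBI 3 and TBI 4. P3h3, Plod2 and P4ha3 differed least, by 0.11, 0.10 and −0.10 (exact permutation p = 0.629, 0.686 and 0.686). Depending on the library left out, these differences ran from −0.01 to 0.31, from 0.01 to 0.24 and from −0.25 to 0.09.

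**Figure D4:**
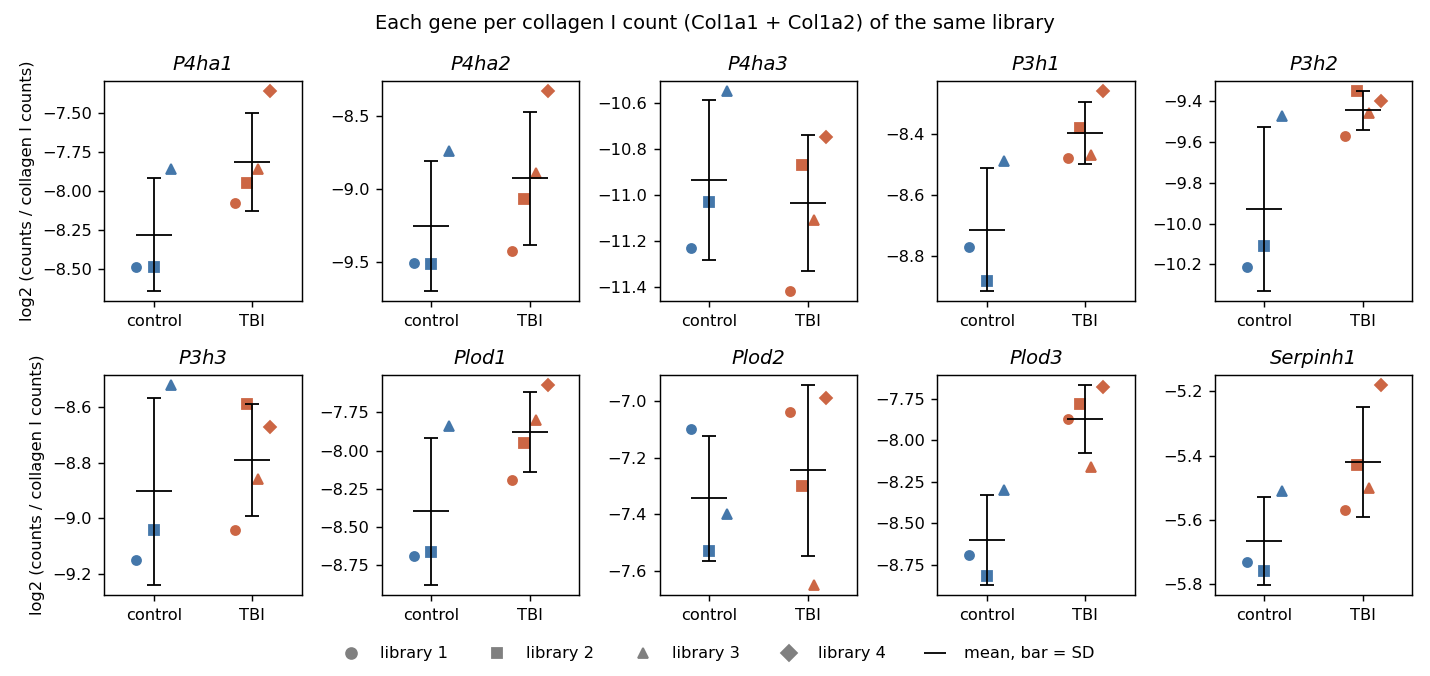
Log2 ratio of each gene's counts to the summed Col1a1 and Col1a2 counts of the same library, with bars for the mean and SD; the vertical axes differ between panels. Plod3 and P3h1 have all 4 TBI libraries above the controls, and control 3 is the highest control for every gene except Plod2.

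The partners of these enzymes were set beside them as pairs that form a complex. P3h1 per Crtap count was −0.25, −0.26 and −0.39 in controls and −0.06, −0.24, −0.07 and 0.02 after TBI on the log2 scale. The groups did not overlap, with control 1 and TBI 2 nearly equal, and the mean was 0.22 higher after TBI (exact permutation p = 0.0571, adjusted p = 0.243). Crtap itself, the scaffold of that complex, had a log2 fold change of −0.62 ± 0.14 (SE; edgeR adjusted p = 0.423). P4ha1 per P4hb count differed by −0.16 with overlapping groups (exact permutation p = 0.286, adjusted p = 0.486), and this value was −0.25 without control 1, −0.10 without TBI 1 or TBI 2 and −0.34 without TBI 3 and TBI 4. P4hb, which serves many other proteins, had a log2 fold change of −0.10 ± 0.13 (edgeR adjusted p = 0.836). Mean ratios differed by 0.03 for P3h3 to P3h4 (exact permutation p = 0.686) and by 0.02 for Plod2 to Fkbp10, the chaperone that supports it (exact permutation p = 0.914). Those 2 differences changed sign with libraries left out. P3h4 had a log2 fold change of −0.65 ± 0.18 and Fkbp10 of −0.66 ± 0.16 (edgeR adjusted p = 0.483 and 0.423).

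The partners of collagen folding in the ER had log2 fold changes from −0.69 to 0.63. On a list of 10 collagen partners, 9 were lower, the median log2 fold change was −0.49, and there were 4 whose TBI libraries were all below the controls, and edgeR called 0 (5 lower and 1 higher at an unadjusted p under 0.05, 1 in DESeq2). Creb3l1, a transcription factor of secretory bone cells, was at −0.59 ± 0.18 (SE). The exception was Tmem38b, an ER cation channel whose loss causes brittle bones, at 0.63 ± 0.26. It measured 21.2, 22.3 and 30.7 CPM in controls and 27.8, 29.8, 40.1 and 55.4 CPM after TBI, so only TBI 3 and TBI 4, the libraries richest in muscle markers, were above the controls, and the part of muscle was not tested. The 16 collagen chains were all lower with a median of −0.75, 14 of them without overlap. For these chains edgeR called 0 (14 at an unadjusted p under 0.05, 7 in DESeq2). Beside both lists, 45.6% of all genes tested had an estimate below 0, and 5.38% had every TBI library below every control. At an unadjusted p under 0.05, 4.97% of all 17144 genes were lower and 407 genes were higher. DESeq2 called 0.736% of all genes with an adjusted p. Col9a2 of cartilage was at −0.90 ± 0.13 and Col5a2 of fibrils at −0.75 ± 0.17, while Col4a1 and Col4a2 of basement membranes were at −0.06 ± 0.19 and −0.11 ± 0.20.

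General ER chaperones had estimates near 0. On that list of 12, log2 fold changes ran from −0.09 to 0.18 around a median of −0.04, and none had separated groups. In edgeR 0 were called, with 0 at an unadjusted p under 0.05 and 0 in DESeq2. Hspa5, which encodes the chaperone BiP, was at −0.07 ± 0.17 (SE), Sdf2l1, a partner of its co-chaperones, at 0.18 ± 0.24, and Xbp1, the transcription factor of the unfolded protein response, at 0.10 ± 0.15. These values stand beside −0.50 ± 0.15 for the collagen-specific chaperone Serpinh1; the difference between these genes was not tested.

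Other hydroxylases that share the cofactors of the collagen enzymes, several of them oxygen sensors, were set beside the members. Of these 8, 2 had estimates below 0, against 45.6% of all genes, with a median of 0.24, and edgeR called 0 (0 at an unadjusted p under 0.05, 0 in DESeq2). Egln3, a prolyl hydroxylase of the hypoxia-inducible factor (HIF), was at 0.69 ± 0.42 (SE). It measured 11.7, 17.5 and 25.2 CPM in controls and 13.6, 21.2, 45.1 and 37.3 CPM after TBI, so only TBI 3 and TBI 4, the libraries richest in muscle markers, were above the controls. The same held for Egln1, Egln2 and Hif1an, and the part of muscle in these values was not tested. P4htm, a transmembrane relative of the collagen enzymes, was at −0.40 ± 0.20, and Jmjd6, a nuclear lysyl hydroxylase, at −0.20 ± 0.14. Among 10 HIF target genes, a list set beside the members because P4ha1, P4ha2 and Plod2 are known HIF targets, 3 had estimates below 0 with a median of 0.12. In edgeR 0 of these were called (1 higher at an unadjusted p under 0.05, as were 407 of all 17144 genes, and 0 in DESeq2). That 1 was Car9, a carbonic anhydrase, at 1.10 ± 0.30 and low levels, 1.17 to 1.51 CPM in controls and 1.82 to 3.58 CPM in the TBI libraries. Pgk1 and Ldha, glycolytic enzymes that muscle also holds in large amounts, were at 0.63 ± 0.37 and 0.63 ± 0.41, again with only TBI 3 and TBI 4 above the controls. Kdm3a, a histone demethylase, was at −0.16 ± 0.10, and the hormone gene Adm at −0.44 ± 0.31, while Slc2a1, a glucose transporter, and Ndrg1 were at 0.01 ± 0.17 and 0.01 ± 0.11.

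**Figure D5:**
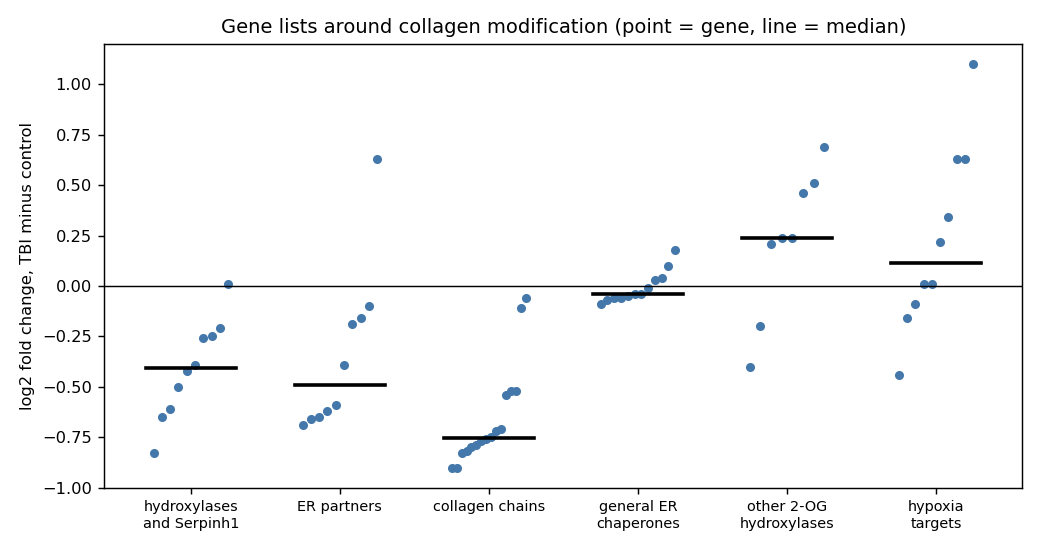
Log2 fold change of each gene on 6 lists, with the median as a line; 2-OG stands for 2-oxoglutarate. The medians are −0.40 for the hydroxylases and Serpinh1, −0.49 for their ER partners, −0.75 for collagen chains and −0.04 for general ER chaperones.

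The members did not vary as 1 block across the 7 libraries. Over their 45 pairs, Pearson's r of log2 CPM ran from −0.43 (P4ha2 with Plod3) to 0.97 (P4ha3 with P3h3, and P3h1 with Serpinh1), with a median of 0.63. P4ha1 and P4ha2 had an r of 0.93, while Plod1 and Plod2 had 0.02. Among 14494 other named genes, those most like P3h1 over the 7 libraries were Col1a2 (r = 0.994), Loxl1 (0.990), Ptprf (0.989), Fkbp10 (0.989) and Col1a1 (0.989). Those most like Serpinh1 were Fkbp10 (0.989), Gja1 (0.988), Robo1 (0.988), the osteoblast factor Sp7 (0.983) and Maged1 (0.983). For P4ha3 they were Dkk3 (0.992), Dbn1, Olfml3, Itga10 and Col16a1 (0.985), and for Plod3 they were Brpf1 (0.980), Gata2, Sh3bp1, Tmem241 and Paxbp1 (0.967). The gene most like P4ha1 was Prph (0.976), that most like P4ha2 Hoxa5 (0.984) and that most like Plod2 Prss35 (0.982). For P3h2 it was Susd5 (0.995), for P3h3 Cacnb3 (0.995) and for Plod1 Ccdc157 (0.991). The highest r among the 14494 genes was thus at least 0.976 for every member. These r values include the difference between the groups and rest on 7 libraries that share their depth and cell make-up.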

How the data were processed

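Whole-femur RNA was sequenced in 3 control and 4 TBI libraries, prepared as stranded mRNA libraries according to the labels. The authors deposited raw read counts per Ensembl gene and a second table of normalized values. The normalized values look like log2 values; how the authors made that log2 table, which tool counted the reads and whether it used strand could not be found in the sources used here. The submitters' processing notes list STAR, DESeq and GRCm38 and give no versions. Symbols, coordinates and union exon lengths came from GENCODE M21 on GRCm38 (49412 identifiers matched), and promoters from RefSeq on GRCm38.p6.

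Counts were filtered with filterByExpr, scaled by TMM and tested with edgeR 4.0.16 (glmQLFit and glmQLFTest, R 4.3.3), adjusted by Benjamini-Hochberg over 17144 genes at a threshold of 0.05. Alternatives were DESeq2 1.42.0 (no adjusted p for 1664 genes), limma-voom (limma 3.58.1), other scalings and filters, a replicate block, a muscle covariate, libraries left out and, chosen after seeing the data, the authors' log2 values. Ratios and shares were compared by two-sided exact permutation over 35 splits, and correlations used log2 CPM with a prior count of 2. Of the fits, only the main edgeR fit and DESeq2 were also run on simulated counts with known fold changes. Members and lists were chosen with earlier results of these data known. Named genes are the members, their ratio partners, up to 4 genes a list with the smallest p and genes of highest r. The latter are 5 each for P3h1, Serpinh1, P4ha3 and Plod3 and only the highest for each other member. The plan did not single out those members. Tmem38b, Col4a1, Col4a2, Hspa5, Egln1, Hif1an, Adm, Slc2a1, Ndrg1 and Znhit1 were chosen after their values were seen.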

Additional observations from a re-analysis of the deposited data

How the results depend on the processing

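The members' median log2 fold change lay between −0.46 (limma-voom with quality weights) and −0.33 (without control 2) over the alternatives, including the deposited log2 values, and 9 or 10 members had a lower estimate in each fit. The number of members called was 0 in all fits except DESeq2, which called 1. Across all genes, 114 were called in DESeq2 and 0 in every other fit. Plod3 was at −0.03 with upper quartile scaling and between −0.06 and 0.08 with 1 library left out. With 1 library left out, the difference per collagen I count ran from −0.25 to 0.09 for P4ha3 and from −0.01 to 0.31 for P3h3, the P3h1 share from −0.515 to 2.82 percentage points, P3h3 per P3h4 from −0.01 to 0.09 and Plod2 per Fkbp10 from −0.08 to 0.16. Without TBI 3 and TBI 4, P3h3 per P3h4 was −0.01. The cause of these turns was not tested. With all 16 collagen chains as the denominator, or shares of counts not divided by length, all differences kept their direction.

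Same-numbered control and TBI libraries had correlations of deviations of 0.549, −0.028 and 0.322 for numbers 1 to 3, so the numbers were not taken to pair the samples; control 1 was nearest its own number, controls 2 and 3 were not. With the replicate block the median was −0.41, 0 members were called and Plod2 had the lowest adjusted p among members (0.127, edgeR). TBI 4 has no control of its number, so it adds nothing to the group difference in that fit. Each member had 107 or more counts in every library. The number of libraries, 3 and 4, sets the smallest exact permutation p at 0.0571.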
